A study of Mus musculus with 2 samples.

Results

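The genes of the amino acid stress response and the aminoacyl-tRNA synthetases were followed in 2 single-cell RNA libraries of mouse CD8+ T cells. There were 62 such genes among the 32285 in the files: 28 named ones, and 34 synthetases found by the pattern of their symbols (Aars to Yars, and Aars2 to Yars2). The series compares lymph node CD8+ T cells, the lymphocytes that kill infected or malignant cells, with and without electrical stimulation delivered through the matrix around them. One library is labelled NC and the other HC. The labels do not spell out either name, do not say which library was stimulated, and give no strain, genotype, age or time, so both libraries are called by their labels. Each group is 1 library, so the groups could not be tested against each other. Every 95% interval below covers counting error only.

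When amino acids run short, uncharged tRNA activates the kinase GCN2, which phosphorylates the translation factor eIF2. Most protein synthesis then slows while the transcription factor ATF4 is translated more, and ATF4 with its C/EBP partners switches on genes that make amino acids, import them and load them onto tRNA. The same arm answers stress of the endoplasmic reticulum and of mitochondria. In T cells, activation itself raises demand for amino acids, and ATF4, the serine synthesis enzymes and the transporters are known parts of that growth programme. The aminoacyl-tRNA synthetases join each amino acid to its tRNA, with separate sets of enzymes for the cytosol and, mostly, for mitochondria.

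ATF4 binds DNA with a C/EBP protein at a composite element whose core was searched here as TGATGNAA on both strands. Of the 62 genes, 47 were found by symbol in a RefSeq table of promoters (GRCm38.p6), and 8 of these (17.0%) held a match within 250 bases before a start site. Over all 27025 genes of that table, 1056 (3.91%) held one. A match describes the letters of this window and is not evidence of binding. Matches are shown because they fell in 2 of 4 stress output genes, 2 of 6 synthesis genes, 1 of 6 transporters and 3 of 12 cytosolic synthetases in the table, and in 0 of 14 mitochondrial synthetases and 0 of 5 stress transcription factors. Each sequence is written 5′ to 3′ on the strand of its gene, with the matches in capitals (TTNCATCA is the same element read on the other strand). A stretch of 80 bases is given, or of 30 where the longer one would reach into the GENCODE M21 gene model, as it would for Asns, Tars and Vldlr.
Asns, chr6:7693214-7693243, minus strand: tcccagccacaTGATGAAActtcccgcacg
Pycr1, chr11:120643808-120643887, minus strand: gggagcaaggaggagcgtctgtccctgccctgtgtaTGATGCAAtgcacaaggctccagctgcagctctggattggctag
Slc7a11, chr3:50443627-50443706, minus strand: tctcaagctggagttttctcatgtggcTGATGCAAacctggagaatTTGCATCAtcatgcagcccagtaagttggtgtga
Chac1, chr2:119351013-119351092, plus strand: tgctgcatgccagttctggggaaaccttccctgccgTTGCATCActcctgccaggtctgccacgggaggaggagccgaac
Vldlr, chr19:27216809-27216838, plus strand: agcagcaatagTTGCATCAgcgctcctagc
Gars, chr6:55037921-55038000, plus strand: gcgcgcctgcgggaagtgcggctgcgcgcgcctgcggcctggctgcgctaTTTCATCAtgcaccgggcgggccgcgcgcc
Tars, chr15:11399659-11399688, minus strand: gggccaggagtcccgTTGCATCAgctggtt
The element began 23 bases before the RefSeq start of Asns, 15 before that of Tars and 30 before that of Gars. It lay inside the GENCODE gene model for Asns and Vldlr. Slc7a11 held 2 matches, 1 on each strand.

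After filtering, 13641 NC cells and 13617 HC cells remained, with medians of 6898 and 7425 unique molecular identifiers (UMIs, each marking 1 captured RNA molecule) per cell. Levels are UMIs per 1000000 UMIs of the cells summed (CPM), and a gene was compared where NC or HC reached 5 CPM. Mitochondrially encoded genes, whose share climbs in damaged cells, gave 4.01% of UMIs in NC and 4.35% in HC. Cells with Cd8a or Cd8b1 and no Cd4 made up 98.4% and 98.3%, and Cd4, Foxp3, Csf1r, C1qa and Ncr1 had between 0 and 3 UMIs in each library. B cell and myeloid markers differed between the libraries in both directions: Igkc had 2406 UMIs in NC and 228 in HC, Cd79a 176 and 38, and Lyz2 416 and 0, while Cd79b had 1442 and 1596, and Itgax 111 and 142. Both libraries held 64 barcodes in common, 49 of them kept in both.

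Between the libraries, most of these genes differed little. Of the 53 that reached 5 CPM, 0 were higher in HC by 1.5-fold or more, and 1, Asns, was higher in NC by as much. Over all 8704 genes compared, 1.93% passed 1.5-fold towards HC and 1.47% towards NC. The log2 ratio of HC over NC had a median of -0.11 over the 53 genes and of -0.03 over all genes. Counting intervals lay above 0 for 13 of the 53, below 0 for 26 and held 0 for 14. At these counts an interval can exclude 0 at a small ratio, as for Cebpg at 0.08 (0.02 to 0.15). The share over all genes is not given here, so these counts do not set the 53 apart.

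**Figure D1:**
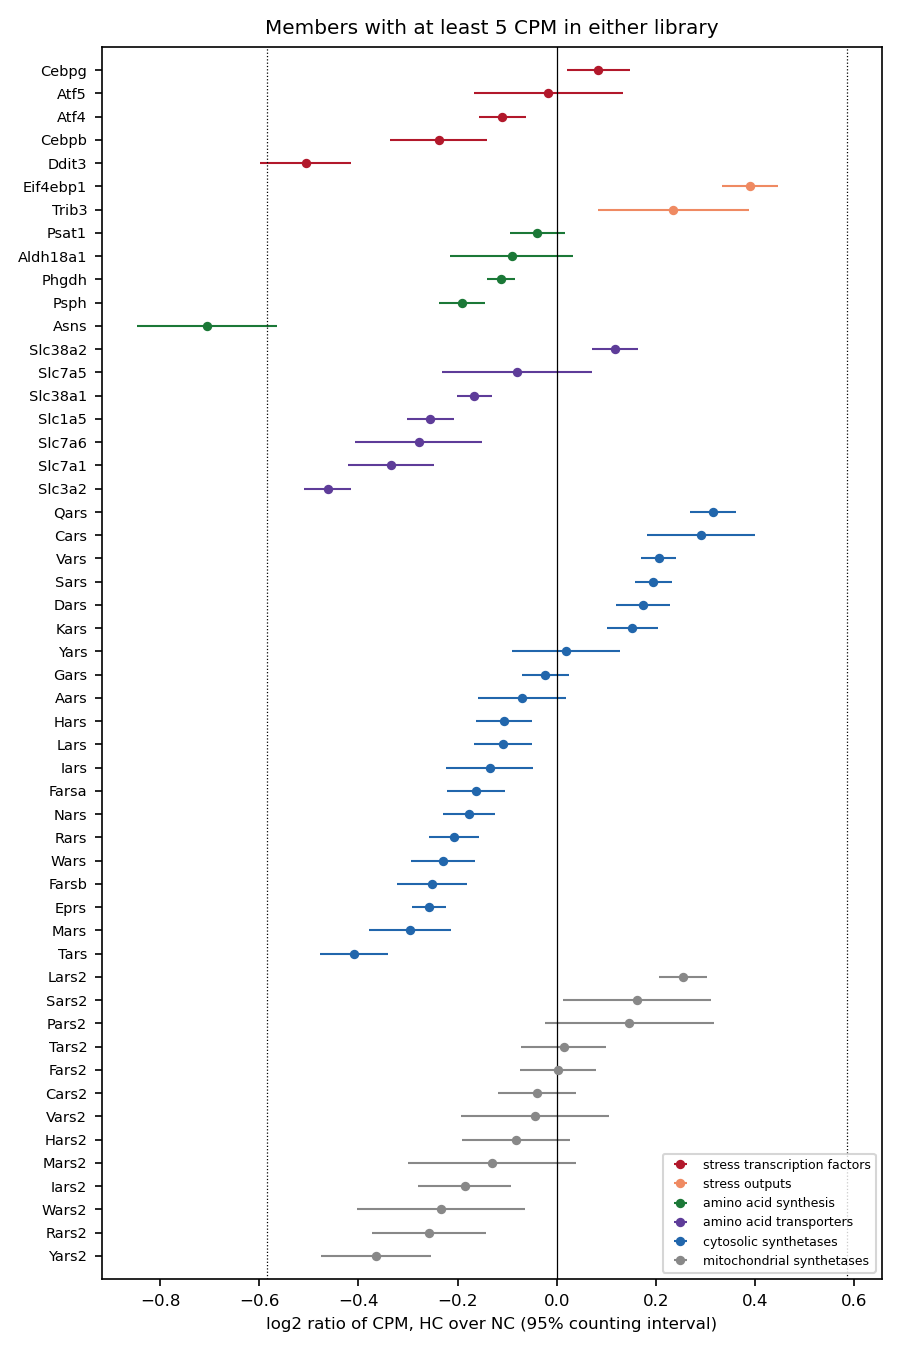
Log2 ratio of CPM, HC over NC, for 52 genes that reached 5 CPM (points; bars, 95% counting intervals; dotted lines, 1.5-fold), grouped by role. Asns alone lies past a dotted line, at -0.71, and 6 of the 7 transporters lie below 0.

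Of the stress transcription factors, the CHOP gene Ddit3 differed the most. Ddit3, which ATF4 induces when stress persists, was at 20.2 CPM (95% interval 19.4 to 21.1) in NC and 14.2 CPM (13.6 to 14.9) in HC, a log2 ratio of -0.51 (-0.60 to -0.41). The intervals do not overlap, but the ratio is short of 1.5-fold. In the files 2 identifiers carry the symbol Ddit3, and the one with more UMIs was used. Atf4 itself was at 66.4 CPM in NC against 61.5 CPM in HC (log2 ratio -0.11). Atf4 RNA does not report ATF4 activity fully, since stress acts on its translation. The dimer partners of ATF4 split, with Cebpb at 15.9 and 13.4 CPM (-0.24) and Cebpg at 33.2 and 35.2 CPM (0.08). Atf5, a related factor tied to mitochondrial stress, was at 6.31 and 6.24 CPM (-0.02).

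The stress outputs that reached 5 CPM, Eif4ebp1 and Trib3, had ratios above 0. Eif4ebp1 encodes 4E-BP1, which holds back cap-dependent translation when mTORC1 is off. It was at 38.6 CPM (37.5 to 39.8) in NC and 50.6 CPM (49.3 to 51.9) in HC, a log2 ratio of 0.39. Trib3, the pseudokinase that ATF4 and CHOP induce, was at 5.65 and 6.65 CPM (0.24). Ddit3 and Trib3 thus had ratios of opposite sign.

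The other 3 stress outputs were under 5 CPM. Sesn2, which senses leucine for mTORC1, was at 4.77 CPM in NC against 4.54 CPM in HC. Chac1, which breaks down glutathione and is among the sharpest known responders to ATF4, had 18 UMIs in all NC cells and 15 in all HC cells. That is 0.155 and 0.131 CPM. Vldlr, a lipoprotein receptor, had 1 UMI in NC and 87 in HC. Its log2 ratio was 6.46, with a counting interval of 3.94 to 11.8 that is wide because NC has 1 UMI.

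Asparagine synthetase stood apart among the synthesis enzymes. Asns (chr6:7675169-7693254 in GENCODE M21, mm10) makes asparagine from aspartate and glutamine and is a classical ATF4 target. It was at 9.43 CPM (8.88 to 10.0) in NC and 5.79 CPM (5.35 to 6.24) in HC, so NC was 1.63-fold higher (1.48 to 1.80). The lower bound of that fold is just under 1.5. Without the cells that held a UMI of B cell or macrophage genes, which the libraries held in unequal amounts, the Asns log2 ratio was -0.69 in place of -0.71. The serine enzymes were close to even: Phgdh, the first step, was at 185 CPM in NC against 171 CPM in HC (log2 ratio -0.11). Psat1, the second step, was at 46.1 and 44.8 CPM (-0.04), and Psph, the last, at 69.9 and 61.2 CPM (-0.19). Of the enzymes that make proline, Aldh18a1 was at 9.53 and 8.95 CPM (-0.09) and Pycr1 was low, with 40 and 54 UMIs. None of the 5 enzymes with at least 5 CPM had a ratio above 0.

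Transporters were lower in HC than in NC for 6 of the 7 genes with at least 5 CPM, with a median log2 ratio of -0.26. None reached 1.5-fold. Slc3a2, the heavy chain (CD98) that carries several light chains to the surface, was at 73.2 CPM (71.6 to 74.7) in NC and 53.1 CPM (51.8 to 54.5) in HC, a ratio of -0.46. Its leucine-importing light chain Slc7a5 (LAT1) was at 6.40 and 6.06 CPM (-0.08), with an interval that holds 0, so the chains of the LAT1 complex differed in their ratios. The light chain Slc7a6 was at 9.51 and 7.84 CPM (-0.28).

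Slc7a1, the main importer of arginine and other cationic amino acids, was at 20.9 CPM in NC against 16.6 CPM in HC (-0.33). The glutamine carriers were near each other: Slc1a5 was at 68.9 and 57.7 CPM (-0.26) and Slc38a1 at 116 and 103 CPM (-0.17). The exception was Slc38a2, the carrier that amino acid starvation is known to induce, at 63.2 and 68.6 CPM (0.12). Slc7a11, the cystine importer, had 7 UMIs in NC and 0 in HC, too few to compare. Slc1a4, a carrier of serine and alanine, had 37 and 41 UMIs.

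The cytosolic synthetases were all above 5 CPM and spread to both sides, with 7 of 20 ratios above 0 and a median of -0.11. Eprs, which charges glutamate and proline, was at 132 CPM in NC against 111 CPM in HC (-0.26). Vars, for valine, was at 100 and 116 CPM (0.21), Sars, for serine, at 96.9 and 111 CPM (0.20), and Gars, for glycine, at 62.5 and 61.5 CPM (-0.02). The subunits of the phenylalanine enzyme lay on the same side, with Farsa at 43.7 and 39.1 CPM (-0.16) and Farsb at 30.8 and 25.9 CPM (-0.25).

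The ends of that range were Tars, for threonine, at 35.0 and 26.4 CPM (-0.41) and Qars, for glutamine, at 58.0 and 72.2 CPM (0.32). Tars is named because it was extreme. Eprs and Qars sit in the same multi-synthetase complex, and their ratios had opposite signs with intervals that exclude 0. Of the cytosolic synthetases whose promoter match is shown above, Gars was near even, at -0.02, and Tars was the lowest.

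Of the mitochondrial synthetases, 14 of 17 had at least 5 CPM, with 6 ratios above 0 and a median of -0.04. Lars2, for leucine, was at 55.9 CPM in NC against 66.7 CPM in HC (0.25). Cars2, for cysteine, was at 23.0 and 22.4 CPM (-0.04), Fars2, for phenylalanine, at 23.7 CPM in both, and Tars2 at 18.9 and 19.1 CPM (0.01). Aars2, Ears2 and Nars2 were under 5 CPM.

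The 62 genes were next compared between cells with and without a UMI of Egr2, Bnip3 or Mki67. Egr2 is a transcription factor induced by T cell receptor signalling, Bnip3 a mitochondrial protein induced in low oxygen, and Mki67 a marker of cycling cells. Cells with an Egr2 UMI were 538 in NC (3.94%) and 279 in HC (2.05%). Those with a Bnip3 UMI were 944 (6.92%) and 2962 (21.8%), and those with an Mki67 UMI 7285 (53.4%) and 9425 (69.2%). With each cell thinned to 2000 UMIs, and 133 NC and 94 HC cells too shallow for that left aside, the shares were 1.13% and 0.703% for Egr2, 1.78% and 6.94% for Bnip3, and 31.8% and 46.4% for Mki67. No cell population in these libraries could stand for one that lacks Egr2, Bnip3 and Mki67, so the share that free RNA alone gives was not measured.

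The positive cells were deeper in all 3 classes. Egr2-positive cells had medians of 10063.5 UMIs in NC and 9521 in HC, against 6804 and 7388.5 in the others. The medians were 10378.5 and 9590 for Bnip3-positive cells against 6737 and 6909, and 9367 and 8774 for Mki67-positive cells against 5703 and 5172.5. Each class ratio is therefore also given after the negative cells were weighted to the UMI make-up of the positive ones over 10 depth bins, and is then called depth-matched. Depth within a bin was not matched, and the deepest bin spanned 15194 to 49510 UMIs in NC and 13936 to 52767 in HC. A gene counts for a class when it is at least 1.5-fold higher the same way in both libraries, with at least 5 CPM.

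In Egr2-positive cells, Slc7a1 was higher and Trib3 lower. Of the genes followed here, 1 (Slc7a1) was at least 1.5-fold higher in Egr2-positive cells of both libraries, against 2.09% of all 8534 genes, and 1 (Trib3) in Egr2-negative cells, against 0.539%. Each is 1 of the 53 genes compared, or 1.89%, which for the positive cells is near the background. In NC, Slc7a1 was at 38.8 CPM (34.1 to 44.1) in Egr2-positive cells and 19.9 CPM (19.1 to 20.8) in the others. In HC it was at 27.4 CPM (21.8 to 33.9) and 16.3 CPM (15.6 to 17.1). The log2 ratios were 0.96 in NC and 0.75 in HC, and 0.72 and 0.58 depth-matched, of which the HC value is just short of 1.5-fold. The positive cells lay above the negative ones in both libraries without overlap of the intervals.

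The other transporters leaned the same way. Slc1a5 was at 103 CPM against 67.0 in NC (log2 ratio 0.62) and 76.9 against 57.2 in HC (0.43). Slc3a2 was at 103 against 71.5 CPM in NC (0.53) and 71.6 against 52.6 in HC (0.44). For Slc7a5 the ratios were 0.51 and 0.63, falling to 0.23 and 0.33 depth-matched. The exception was again Slc38a2, at 0.10 in NC and -0.21 in HC. Across the 7 transporters the median ratio was 0.51 in NC and 0.44 in HC, against 0.02 in both over all genes, and 0.24 and 0.35 depth-matched.

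Atf4 was at 84.0 CPM in Egr2-positive and 65.4 in Egr2-negative cells of NC (0.36), and at 83.5 and 60.9 CPM in HC (0.45). Depth-matched, its ratios were 0.33 and 0.42. The cytosolic synthetases had median ratios of 0.22 and 0.17, which came to 0.06 and 0.05 depth-matched. Phgdh was even between the classes, at 0.06 and -0.08, and Asns had ratios of 0.32 and 0.27 with intervals that hold 0.

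Trib3 went the other way. It was at 3.07 CPM (1.85 to 4.80) in Egr2-positive and 5.79 CPM (5.35 to 6.26) in Egr2-negative cells of NC, and at 2.31 CPM (0.929 to 4.76) and 6.77 CPM (6.29 to 7.27) in HC. The log2 ratios of -0.91 and -1.55 became -0.48 and -1.33 depth-matched. In cells thinned to 2000 UMIs and classed anew, where both genes are rarely seen, the HC ratio of Trib3 was 1.81. Depth-matched, 0 of these genes passed in either direction in both libraries, against 1.5% of all genes for positive and 0.235% for negative cells.

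**Figure D2:**
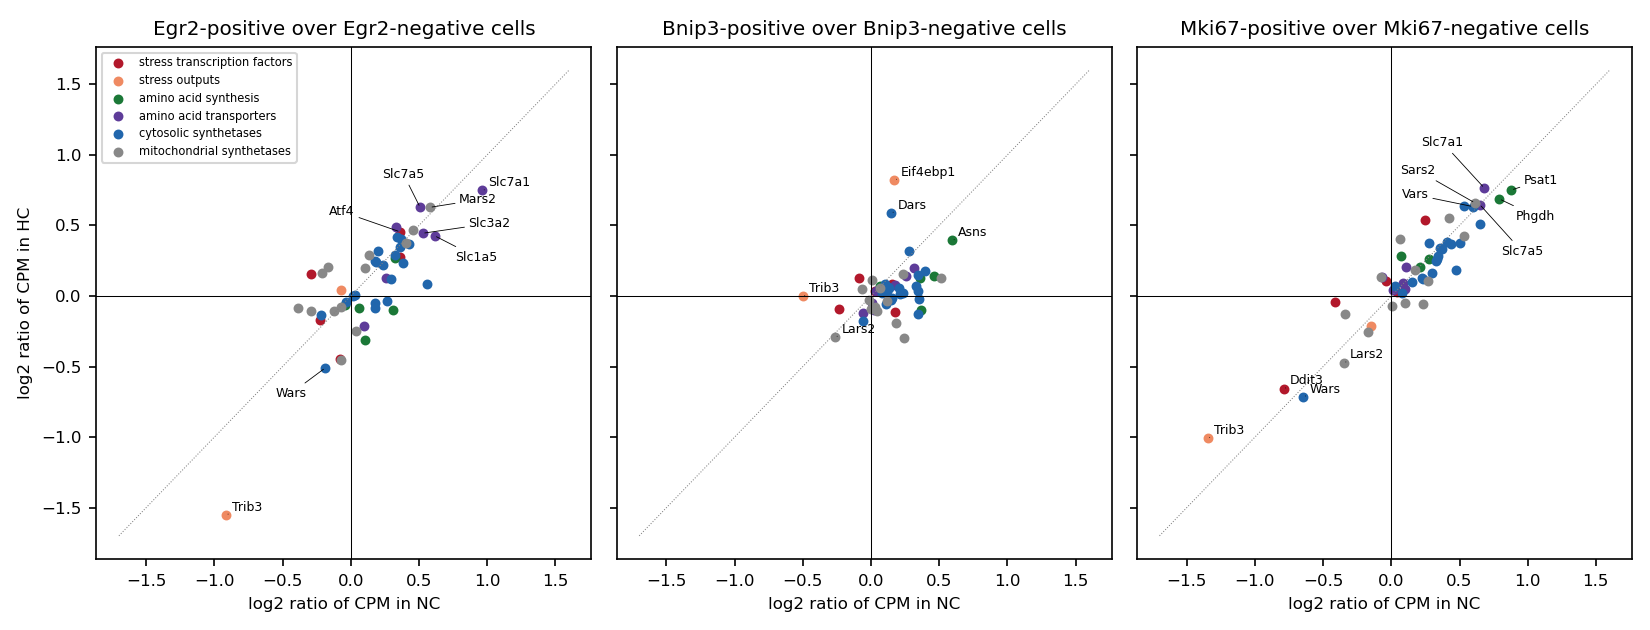
Log2 ratio of CPM in positive over negative cells, in NC (horizontal) and HC (vertical), for cells split by a UMI of Egr2, Bnip3 or Mki67, before depth matching. Points on the dotted line have equal ratios in both libraries; Slc7a1 and Trib3 lie at opposite ends of the Egr2 panel, and Eif4ebp1 and Dars lie above the line in the Bnip3 panel.

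In Bnip3-positive cells, Eif4ebp1 and Dars were higher in HC and near even in NC. None of these genes was at least 1.5-fold higher in Bnip3-positive or Bnip3-negative cells of both libraries, as were 0.118% and 0.0236% of all 8484 genes. In HC alone, where 1.46% of 8671 genes were at least 1.5-fold higher in Bnip3-positive cells, Eif4ebp1 and Dars were. Eif4ebp1 was at 73.7 CPM (70.8 to 76.7) in Bnip3-positive and 41.6 CPM (40.2 to 43.0) in Bnip3-negative HC cells. In NC it was at 43.0 CPM (39.2 to 47.0) and 38.1 CPM (37.0 to 39.3). The log2 ratios were 0.82 in HC and 0.17 in NC, and 0.73 and 0.13 depth-matched. Between the libraries, HC over NC was 0.78 (0.64 to 0.92) for Eif4ebp1 in Bnip3-positive cells and 0.13 (0.06 to 0.19) in Bnip3-negative cells. These 2 intervals do not overlap. The positive classes were not alike in Bnip3 itself. At least 2 Bnip3 UMIs were held by 83 of the 944 positive cells in NC and 1121 of the 2962 in HC. Whether this bears on the ratio of 0.78 was not tested.

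Dars, the cytosolic enzyme for aspartate, had the same pattern. It was at 65.6 CPM in Bnip3-positive and 43.6 in Bnip3-negative HC cells (0.59), and at 48.4 and 43.7 CPM in NC (0.15). Depth-matched, the ratios were 0.44 and -0.05. Between the libraries its ratio was 0.44 within Bnip3-positive cells and -0.00 (interval -0.07 to 0.06) within the others. The unequal Bnip3 counts of the positive cells apply here too. Dars was chosen after its values were seen.

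Vldlr followed Bnip3 as well, at low counts. In HC it was at 1.96 CPM (1.51 to 2.51) in Bnip3-positive and 0.291 CPM (0.187 to 0.434) in Bnip3-negative cells, a log2 ratio of 2.75, or 2.57 depth-matched. Its only NC UMI was in a Bnip3-negative cell. Asns was the member past 1.5-fold in NC alone, where 0.473% of 8675 genes were higher in Bnip3-positive cells. It was at 13.6 against 8.99 CPM in NC (0.59) and 6.99 against 5.32 CPM in HC (0.39), with depth-matched ratios of 0.26 and -0.09. Phgdh had ratios of 0.36 and 0.13, and 0.12 and -0.11 depth-matched.

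**Figure D3:**
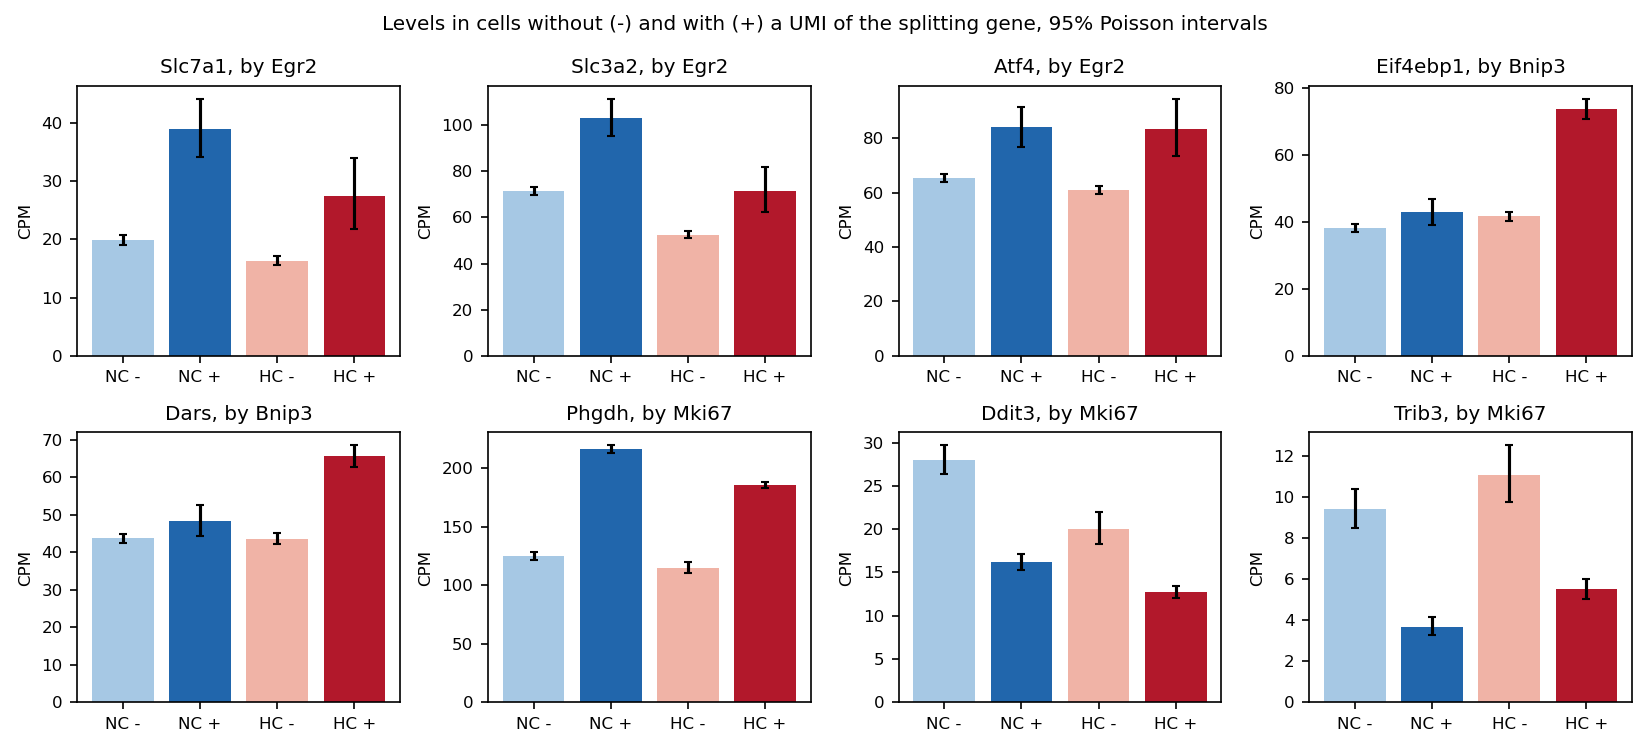
CPM of 8 gene and class pairs in cells without (-) and with (+) a UMI of the splitting gene in NC (blue) and HC (red); bars start at 0 and error bars are 95% Poisson intervals, with no depth matching. Slc7a1 is higher in Egr2-positive cells of both libraries, Eif4ebp1 is raised in Bnip3-positive HC cells (73.7 CPM), and Ddit3 and Trib3 are lower in Mki67-positive cells.

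By Mki67, Psat1 and Phgdh were higher in positive cells and Ddit3, Trib3 and Wars lower, by ratios that shrank with depth matching. Of the genes followed here, 7 were at least 1.5-fold higher in Mki67-positive cells of both libraries, among them Psat1, Phgdh, Slc7a5, Slc7a1, Vars and Sars2. Of all 8605 genes, 9.65% were. Another 3 (Ddit3, Trib3 and Wars) were higher in Mki67-negative cells, as were 2.58% of all genes. Read against that share, 7 of 53 is near the background on the positive side.

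Phgdh was at 216 CPM in Mki67-positive and 125 in Mki67-negative cells of NC, and at 185 and 115 CPM in HC. Its log2 ratios of 0.79 and 0.69 became 0.23 and 0.03 depth-matched. Psat1 was at 54.6 against 29.7 CPM in NC and 48.9 against 29.1 in HC, with ratios of 0.88 and 0.75, and 0.31 and 0.33 depth-matched. The ratios of both serine enzymes thus shrank when cells of like depth were compared. For the transporters they came near 0 or changed sign: Slc7a1 had 0.68 and 0.77, against -0.029 and 0.02 depth-matched, and Slc7a5 had 0.65 in both, against -0.38 and -0.36.

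The ratios of the synthetases Sars2 and Vars shrank less. Depth-matched, 1 of the genes followed here was still at least 1.5-fold higher in Mki67-positive cells of both libraries, against 5.73% of all 8553 genes. Sars2, the mitochondrial enzyme for serine, had 0.61 and 0.66, and 0.47 and 0.56 depth-matched. Vars was at 113 against 75.0 CPM in NC and 125 against 80.4 in HC, with depth-matched ratios of 0.34 and 0.46.

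Before depth matching, Ddit3, Trib3 and Wars were lower in Mki67-positive cells. Ddit3 was at 16.2 CPM against 28 in Mki67-negative NC cells and 12.7 against 20.1 in HC, with log2 ratios of -0.79 and -0.66, and -0.28 and -0.37 depth-matched. Trib3 was at 3.69 against 9.39 CPM in NC and 5.51 against 11.1 in HC, with -1.35 and -1.01, and -0.75 and -0.39 depth-matched. Wars, the tryptophan enzyme that interferon is also known to induce, was at 30.7 against 48.0 CPM in NC and 27.6 against 45.3 in HC, with -0.64 and -0.71, and -0.36 and -0.59 depth-matched. Atf4 itself was even, at 0.04 and 0.03.

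Asns turned from slightly higher to lower with depth matching. Its ratios of Mki67-positive over Mki67-negative cells were 0.28 in NC and 0.27 in HC, and -0.79 and -1.18 depth-matched. It was then the only one of these genes at least 1.5-fold higher in Mki67-negative cells of both libraries, as were 1.03% of all genes. The matched values rest on few cells, since the deepest bin held 66 Mki67-negative cells in NC and 25 in HC, weighted to 1299 and 1337 positive ones. Between the libraries the Asns ratio was below 0 in every class: -0.75 and -0.69 in Egr2-positive and Egr2-negative cells, -0.96 and -0.76 by Bnip3, and -0.74 and -0.73 by Mki67. The 3 splits divide the same cells, so these ratios are not independent of each other. That of Egr2-positive cells rests on 538 cells in NC and 279 in HC. With the 8 combinations of the 3 classes held at equal shares in both libraries, 0 of these genes passed 1.5-fold towards HC, and Asns was the 1 that did towards NC.

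The groups of genes differed in how their level went with the depth of the cells. The cells of each library were split by their UMI count into 10 bins of about equal size. The summed level of the synthesis enzymes was 277 CPM in the shallowest bin of NC, 204 CPM in bin 4 and 436 CPM in the deepest. In HC it was 177 CPM in the shallowest bin and 380 CPM in the deepest. The cytosolic synthetases were at 899 CPM in the shallowest bin of NC, 772 CPM in bin 4 and 1211 CPM in the deepest. The stress transcription factors did not end higher in the deepest bin. Their sum was 161 CPM in the shallowest and 146 CPM in the deepest NC cells, and 142 and 137 CPM in HC. Between these bins Ddit3 fell by more than the sum did in both libraries, and Atf5 fell too. Atf4, Cebpb and Cebpg were each higher in the deepest bin than in the shallowest.

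**Figure D4:**
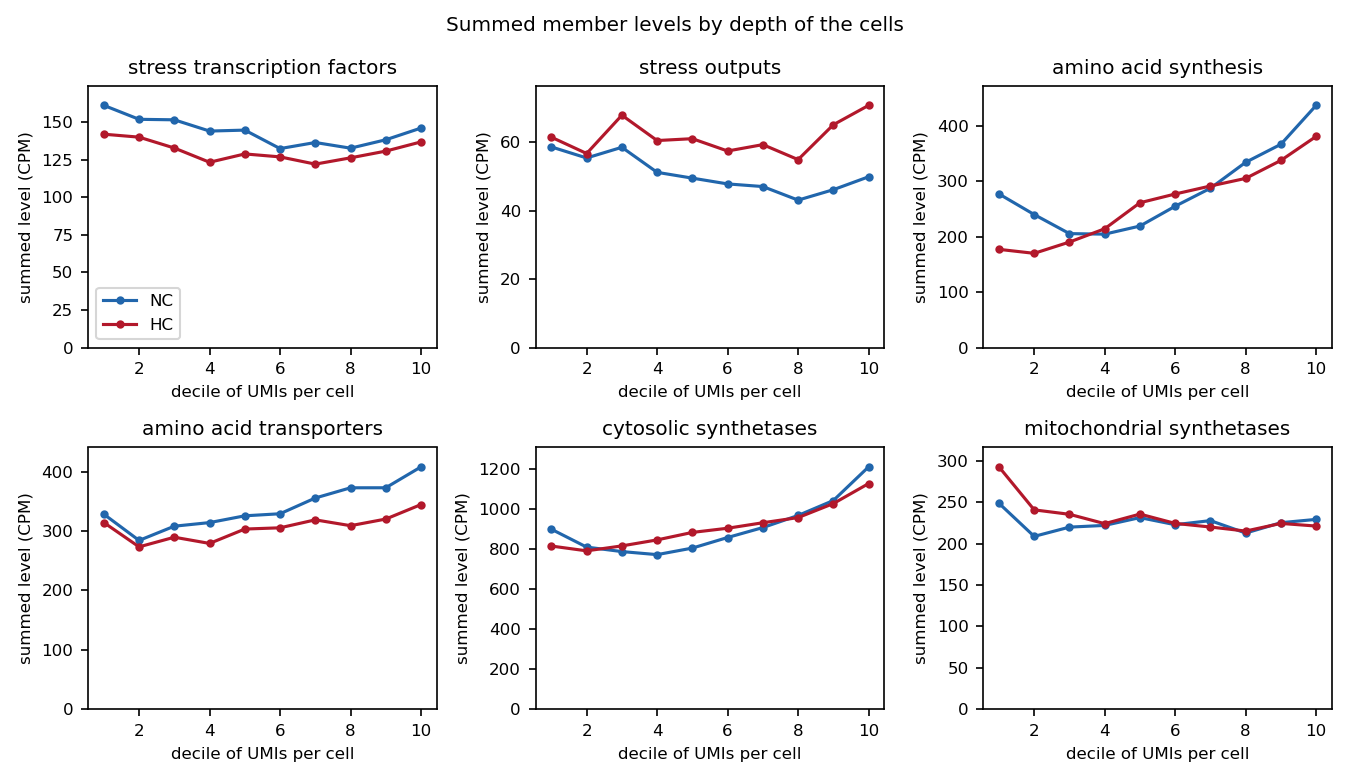
Summed CPM of each group of genes in NC (blue) and HC (red) by decile of the UMI count per cell, from the shallowest (1) to the deepest (10) cells. Synthesis enzymes and cytosolic synthetases are highest in the deepest cells, at 436 and 1211 CPM in NC. In the shallowest NC cells they are at 277 and 899 CPM, with a dip between. Stress transcription factors and mitochondrial synthetases are not highest in the deepest cells. From the shallowest to the deepest cells, Lars2 alone falls by more than the mitochondrial sum, and Ddit3 alone by more than the transcription factor sum.

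Single genes showed this more sharply. Trib3 was at 11.1 CPM in the shallowest and 2.71 CPM in the deepest NC cells, and at 15.4 and 4.93 CPM in HC. Ddit3 went from 31.4 to 14.3 CPM and from 25.1 to 11.6 CPM. Lars2 went from 84.6 to 41.6 CPM in NC and from 143 to 46.3 CPM in HC. Slc7a5 was highest in the deepest cells of both libraries, at 10.0 CPM. Asns was at 8.87 CPM in the shallowest and 15.5 CPM in the deepest NC cells, and at 1.34 and 10.5 CPM in HC. NC exceeded HC in Asns in each of the 10 bins, but by little in some. Bin 5 had 4.67 CPM in NC and 4.32 in HC, and bin 7 had 7.07 and 6.20 CPM.

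The same genes were also compared by whether a cell held a UMI of a stress gene itself, a choice made after the other results were seen. Cells with an Asns UMI were 880 in NC and 570 in HC, with medians of 12110 and 11972.5 UMIs. After depth matching, 42 of 52 of the genes in NC and 42 of 51 in HC were higher in them, with medians of 0.31 and 0.29 against 0.00 and 0.01 over all genes. Slc7a5 led, at 13.3 CPM in Asns-positive and 5.61 in Asns-negative NC cells and 13.7 and 5.52 CPM in HC. Its depth-matched ratios were 0.82 and 0.89, and it was the only one past 1.5-fold in both, against 0.976% of all 8501 genes. Another 0.376% of all genes, and 0 of these, passed the other way. Atf4 (0.34 in both), Phgdh (0.35 and 0.44) and Slc7a1 (0.43 and 0.59) were also higher.

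Trib3-positive cells were compared in the same way. They numbered 610 in NC and 723 in HC. Depth-matched, Slc7a5 was lower in them, at -0.60 in both libraries, and it was the only one of these genes past 1.5-fold, against 0.129% of all 8518 genes in that direction and 0.047% in the other. Phgdh (-0.19 and -0.21) and Psat1 (-0.22 and -0.15) were below 0, while Atf4 (0.25 and 0.16), Wars (0.41 and 0.26) and Ddit3 (0.62 and 0.23) were above. Trib3 itself had ratios of -0.15 and -0.22 in Asns-positive cells. Cells with a Ddit3 UMI, 2047 in NC and 1480 in HC, had 0 of these genes past 1.5-fold in both libraries after depth matching, against 0.0236% of all 8479 genes higher and 0.0% lower in them.

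Neighbouring genes of the pathway were compared as whole lists, and few of them passed 1.5-fold between the libraries. Of 16 genes for the eIF2 kinases, phosphatase and eIF2B, 1 passed 1.5-fold, towards NC, against 1.47% of all genes. It was Eif2b3, a subunit of the exchange factor that phosphorylated eIF2 blocks, at 17.1 CPM in NC and 11.2 in HC (-0.61). Eif2s1, the phosphorylated subunit of eIF2, was at 140 and 104 CPM (-0.42), and Eif2ak4, which encodes GCN2, at 4.80 and 6.0 CPM (0.32). Of 18 other ATF4 targets, 10 reached 5 CPM and 1 of these was past 1.5-fold towards HC, against 1.93% of all genes: Nfil3, a transcription factor, at 5.10 and 8.06 CPM (0.66). Pck2, which makes phosphoenolpyruvate in mitochondria, was at 9.37 and 13.9 CPM (0.56), and Xpot, which exports tRNA from the nucleus, at 13.1 and 10.3 CPM (-0.35). Under 5 CPM, and named after their values were seen, the growth factor gene Vegfa had 162 UMIs in NC and 550 in HC, and Stc2 had 29 and 108.

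None of the remaining lists held a gene past 1.5-fold. Of the partners of the synthetases, 11 of 13 had ratios below 0, with a median of -0.19. Eef1e1, which encodes the complex protein AIMP3, was the lowest at 40.8 and 28 CPM (-0.54), followed by Qrsl1, of the mitochondrial enzyme that makes glutaminyl-tRNA, at 10.8 and 8.06 CPM (-0.43). The ATF4-independent genes of the endoplasmic reticulum stress response had 10 of 13 ratios below 0 and a median of -0.12. The share of all genes below 0 is not given here, so neither count sets its list apart. Hspa5, the chaperone BiP, was at 237 and 187 CPM (-0.34), and the disulfide isomerases were at values alike in sign, Pdia4 at 34.9 and 26.8 CPM (-0.38) and Pdia6 at 109 and 85.8 CPM (-0.34).

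The lists of amino acid sensing by mTORC1 (21 genes, median -0.03) and of other amino acid transporters (8 genes, median 0.03) lay at the median of all genes or close to it. In the first, Tsc2, which restrains mTORC1, was at 6.99 CPM in NC and 8.95 in HC (0.36). Rheb, which activates mTORC1, was at 71.7 and 59.4 CPM (-0.27), and the sestrin Sesn3 at 103 and 84.3 CPM (-0.29). In the second, Slc43a1, a carrier of large neutral amino acids, was at 6.15 and 7.83 CPM (0.35), the mitochondrial aspartate and glutamate carrier Slc25a13 at 7.66 and 6.61 CPM (-0.21) and the aromatic amino acid carrier Slc16a10 at 8.39 and 7.38 CPM (-0.19).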

How the data were processed

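The authors deposited raw UMI counts for each gene in each cell barcode. The matrices come from Cell Ranger 6.1.2, per the file headers. Per the submitters' processing notes, mm10, Seurat 3.2.3 and Cell Ranger 5.0.0 were used, in roles the notes do not give, and the annotation release is not given in the sources used here. Kept cells had at least 500 genes, at least 1000 UMIs and at most 10% mitochondrially encoded UMIs. Doublets were not removed and no caller was run. Counts were summed per library and class and divided by the total to give CPM (per 1000000 UMIs), with no pseudocount. Intervals are exact Poisson for CPM and exact binomial (Clopper-Pearson) for ratios, at 95%, and cover counting error only. No test was run, since there is 1 library per group and cells are not replicates. The kept cells held 115789139 UMIs in NC and 114430972 in HC.

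The genes, lists and rules were chosen with earlier results of these data known. All 28 listed genes are named with values, or by counts where they are low. Of the other 34 synthetases, those past 1.5-fold and the 4 most abundant of each compartment by mean CPM are named, and of each further list up to 3 with the largest ratios. Genes named outside these rules are Tars, Dars, Vegfa and Stc2, chosen after their values were seen. A gene and a sequence are counted in the totals but not reported here.

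The summing and ratio steps were tested on simulated data. Alternatives to the scaling, depth, cell filter, classes and thresholds were run, and only their library factors were taken from edgeR 4.0.16 (TMM) and DESeq2 1.42.0. GENCODE M21 gave positions of genes and RefSeq (GRCm38.p6) promoters. The software was Python 3.11.15, pandas 2.3.3, numpy 2.4.6, scipy 1.17.1 and R 4.3.3.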

Additional observations from a re-analysis of the deposited data

How the results depend on the processing

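No paired analysis was possible because each group has 1 library and the labels give no replicate numbers. The counts of genes at least 1.5-fold different moved with the size and level asked for. Between the libraries, 1 gene was higher in HC (Eif4ebp1) and 6 in NC when a ratio 25% above even was enough, in place of 0 and 1. At 2-fold, or at 20 CPM, 0 were higher in NC. In 14 alternatives that keep these limits, the log2 ratio of Asns stayed between -0.83 and -0.67.

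For Egr2-positive cells, the 1 gene higher (Slc7a1) became 5 in cells thinned to 2000 UMIs, 0 at 2-fold, 13 at 25% above even, 0 depth-matched, 4 where at least 2 Egr2 UMIs were asked for, and 2 without barcodes found in both libraries, an alternative chosen after seeing the data. The 1 gene higher in Egr2-negative cells (Trib3) became 2 in thinned cells and 0 at 20 CPM, at 2-fold and depth-matched. In thinned cells the HC ratio of Trib3 by Egr2 was 1.81 in place of -1.55, from few UMIs. For Bnip3-positive cells, the 0 became 1 (Asns) at 25% above even and 1 (Asns) at 2 UMIs, and for Bnip3-negative cells 2 in thinned cells.

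For Mki67-positive cells, the 7 became 4 with CPM averaged over cells, 1 in thinned cells, 4 without the 5% of cells with most UMIs, 3 at 20 CPM, 1 at 2-fold, 16 at 25% above even and 1 depth-matched. For Mki67-negative cells, the 3 became 1 in thinned cells, 1 at 2-fold, 5 at 25% above even and 1 depth-matched, which was Asns and not 1 of the 3. Depth-matched ratios by Mki67 changed sign for Slc7a5 (-0.38 in NC, -0.36 in HC) and for Slc7a1 in NC (-0.029). The cause was not tested. Of 742 alternative values of single genes between the libraries, 73 moved beyond the counting interval, and 36 of 287 did so by class. Depth limits Chac1, Vldlr, Slc7a11, Slc1a4 and Pycr1, where 1 UMI was worth 0.00864 CPM in NC and 0.00874 in HC.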
